A study of Mus musculus with 2 samples.

Results

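The main mature B cells of the liver, cluster 1, were the cells that the deposited cell table names mature B and places in cluster 1 of the joint clustering, 2357 of the 11929 annotated CD45+ cells. The study asked which immune cells carry the disease of a mouse model of primary biliary cholangitis, in which T cells express a dominant negative form of the transforming growth factor beta receptor II (dnTGFβRII, TG) under the Cd4 promoter, and set these mice beside wild type (WT) mice. Hepatic mononuclear cells were labelled with 49 antibodies that carry oligonucleotides, and transcripts and antibodies of each cell were counted as unique molecular identifiers (UMIs) on the BD Rhapsody microwell platform. All mice were C57BL/6, and the labels give an age of 10 weeks while the methods give a younger one. Cells of TG mice were captured in 1 pooled library together with cells of IFN-γ ARE-Del-/- mice, and cells of WT mice in another together with cells of P40-/-IL-2Ra-/- mice, and only the TG and WT cells are annotated and used here. Each genotype was therefore 1 library, the number of mice behind it is not given in the sources used here and no test between genotypes was possible. The effects of genotype and of the capture cannot be told apart. Cluster 1 held 1028 TG cells and 1329 WT cells.

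Mature follicular B cells recirculate through blood, lymphoid organs and the liver sinusoids, carry IgM and IgD together, and respond to antigen with the help of T cells. Their usual marks are CD23, the low-affinity receptor for IgE encoded by Fcer2a, and CD21, the complement receptor encoded by Cr2. In B cells interferon-γ acts on guanylate-binding proteins, immunity-related GTPases and the machinery that loads peptides on MHC class I molecules.

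The cluster 1 cells gave 3135929 transcript UMIs in TG and 2832045 in WT, with a median of 2898 and 1978 UMIs per cell, so counts were summed over the cells of a genotype and divided by the total (CPM, counts per 1e+06 UMIs). All intervals below are 95% intervals of counting error only, and a gene was called higher or lower where the ratio of summed CPM passed 1.5-fold. Transcripts of other cells were present in the wells of both libraries at a low level. The summed CPM of 10 T cell genes was 398 in TG and 386 in WT cluster 1 cells, which is 4.58% and 4.29% of their level in T cells, and that of the NK cell list was 623 and 387. The myeloid list summed to 584 and 457 CPM, of which Cst3, which B cells also express, gave 270.0 and 274, while C1qa, C1qb and C1qc of this list are listed at 0 in every TG cell. Erythroid and platelet transcripts summed to 1.28 CPM in TG and 97.5 CPM in WT, and hepatocyte transcripts to 0 and 1.06 CPM, but the filtered table lists all but Hbb-bs of these genes at 0 in every TG cell, so their TG sums give no level. In the library files, which are not filtered in this way, Hba-a1, a haemoglobin chain, had 0 UMIs in TG cluster 1 cells, which allows up to 0.957 CPM, and 121 UMIs in WT. Past 1.5-fold, 1 of 10 tested T cell genes was higher in TG and 1 lower (Cd3e and Cd8b1), 2 of 5 NK genes and 3 of 6 myeloid genes were higher, and the tested erythroid genes, Hba-a1 and Hba-a2, were counted as lower while listed at 0 in every TG cell. Of all 8119 genes tested in cluster 1, 4.77% were higher in TG and 4.68% lower. Of the 36 cell barcodes that TG and WT cells shared, 2 lay in cluster 1 in both. The part of these other transcripts in the differences below was not tested. T cells here are all cells named CD4, CD8αβ, CD8αα, NKT or γδ T, summed. Their mix can differ between genotypes, so a T cell ratio also holds that mix. T cell levels are given beside some genes and not others, so a level left out does not mean that T cells lack the transcript.

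The transcripts of cluster 1 carried the mature B cell label. Fcer2a reached 554 CPM in the TG cells and 711 in the WT cells, against 3.87 and 3.07 in T cells. Ighd, the constant region of IgD, stood at 1769 and 1419 CPM, against 22.9 and 12.2 in T cells. Cr2 reached 254 and 352 CPM (3.12 and 2.52 in T cells), and Fcrl1, an Fc receptor-like protein of resting B cells, 175 and 174 (2.26 and 2.05). All 4 defining markers were far above their level in T cells. The cluster was made from these same transcripts, so this is a description and no support for the label. With each cell thinned to 1000 UMIs, which left out no cell, Ighd was seen in 77.7% of TG and 71.3% of WT cells (2.21% and 1.05% of T cells), and Fcer2a in 40.6% and 47.7% (0.282% and 0.288% of T cells). Unthinned, the share of cells with an Fcer2a UMI was 68.0% and 66.7%, and T cells had a median of 3726 and 2777 UMIs. Rag1, which cuts receptor genes in developing B cells, had 3 and 1 UMIs in cluster 1 in the library files.

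**Figure D1:**
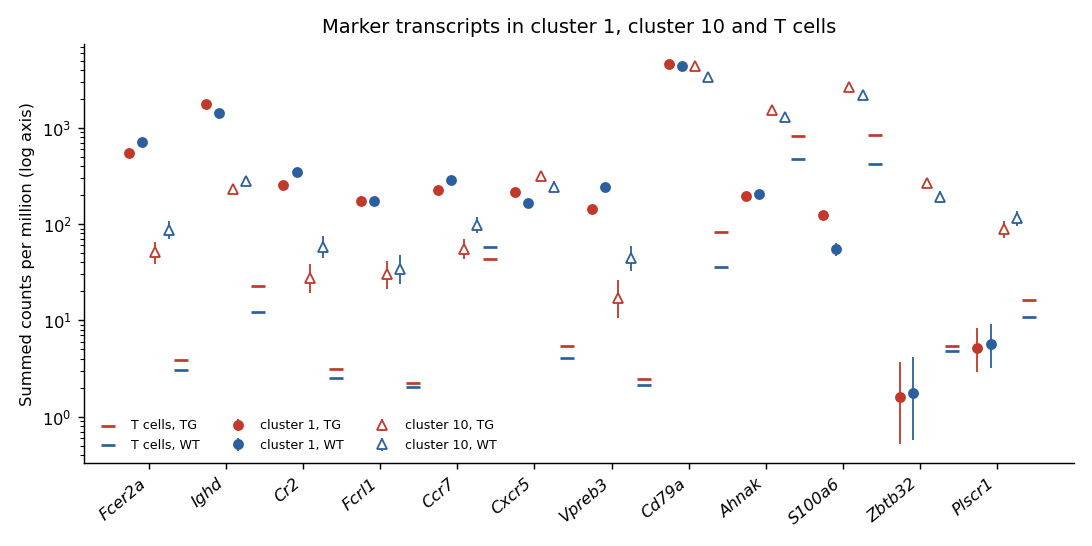
Summed CPM (log axis) of 12 marker genes in cluster 1 (circles), cluster 10 (triangles) and T cells (dashes), TG in red and WT in blue, with Poisson 95% intervals for the B cells. Fcer2a, Ighd, Cr2 and Fcrl1 lie higher in cluster 1 than in cluster 10, and Ahnak, S100a6, Zbtb32 and Plscr1 lie lower.

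As a share of all annotated cells, cluster 1 made up 22.1% in TG (95% Clopper-Pearson interval 20.9 to 23.3) and 18.2% in WT (17.4 to 19.2). These shares lay 3.87 percentage points apart (Newcombe interval 2.39 to 5.37). Among B cells only, cluster 1 made up 81.5% in TG and 78.4% in WT. At least 2 UMIs of T, NK or myeloid genes were found in 91.0% of the TG and 63.5% of the WT cells of cluster 1, and the cells without them made up 2.00% and 6.66% of all cells, a difference of -4.66 points. This limit of 2 UMIs was not scaled to depth, which was higher in TG, and it counts Cst3, so at the same level of these genes it removes more TG than WT cells, and no direction is read from that value. Fewer cells of one type cannot be told apart from more of another, and the part of cell sorting and capture was not tested.

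Between TG and WT cells of cluster 1, 8119 genes had at least 50 UMIs over both genotypes. Of these, 387 were higher in TG (4.77%) and 380 were lower (4.68%), and the median log2 ratio of all genes tested was -0.04. These shares stand beside each count of list members between TG and WT below. The counting interval lay above 0 for 324 of the higher genes and below 0 for 307 of the lower ones. Iigp1, a target of interferon-γ, had the highest ratio of the genes named by rank, and Nr4a2, an early response gene, the lowest.

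**Figure D2:**
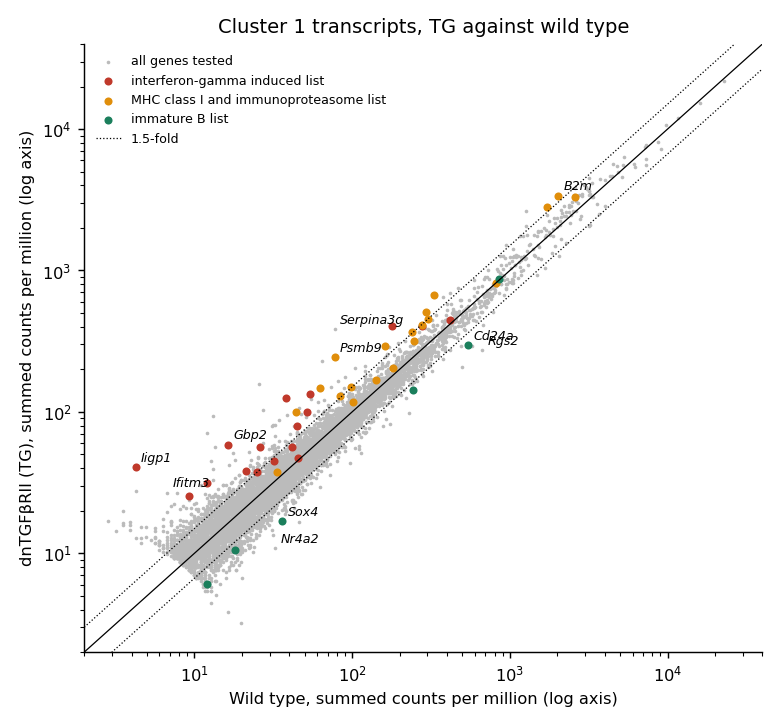
Summed CPM of each gene tested in cluster 1, WT on the x axis and TG on the y axis, both log axes, genes with 0 UMIs in one genotype left out. Dotted lines mark a 1.5-fold difference, and members of the interferon-γ list lie on or above the diagonal, up to Iigp1 at 40.5 CPM in TG and 4.24 in WT.

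Genes that interferon-γ induces were higher in TG cluster 1 cells as a group. Of 23 genes on the list, 18 could be tested, 12 were higher in TG and 0 were lower, and the log2 ratio was above 0 for all 18, with a median of 1.04 beside -0.04 over all genes. Iigp1, an immunity-related GTPase that attacks the vacuoles of intracellular parasites, had 127 UMIs in TG (40.5 CPM) and 12 in WT (4.24 CPM), a log2 ratio of 3.26 (2.40 to 4.25). In cells with fewer than 2 UMIs of T, NK or myeloid genes, 93 in TG and 485 in WT, its ratio was 1.99. In those cells 607 of the 767 genes called between TG and WT fell under the minimum count for testing. Ratios of single genes in those cells, here and below, are given without counts or intervals and may rest on few UMIs. They do not show whether a ratio holds there. In T cells the levels were 34.7 and 22.3 CPM for Iigp1 and 78.4 and 68.9 CPM for Gbp2, so both WT T cell levels were above those of WT cluster 1. Among the guanylate-binding proteins, Gbp2 had 58.7 and 16.2 CPM (log2 1.85, 1.38 to 2.35) and Gbp7 had 125 and 38.1 CPM (log2 1.72, 1.41 to 2.04). Gbp6, Gbp5 and Gbp3 differed by 1.47, 1.12 and 0.82 on the log2 scale in the same direction, while Gbp9 and Gbp4 stayed below the 1.5-fold line at 0.47 and 0.43. Tgtp2, a further GTPase, had 49 and 5 UMIs (log2 3.15, 1.83 to 4.83), and Gbp2b, Gbp8 and Tgtp1 had too few UMIs to be tested. These GTPases share sequence, so reads can be split among paralogs in counting. The TG cells shared a library with IFN-γ ARE-Del-/- cells, and the WT cells with P40-/-IL-2Ra-/- cells. The library files hold 10026 and 24111 cells, against 4647 TG and 7282 WT cells annotated. The part of transcripts from the unannotated cells in the ratios of this list was not tested.

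Regulators of the pathway showed smaller ratios than most of its GTPases. Irf1, an early target of the cytokine, had 408 and 279 CPM (log2 0.55, 0.42 to 0.68), and Socs1, the inhibitor of the same signal, had 37.3 and 25.1 CPM (log2 0.57, 0.14 to 1.02). Both lay just under the 1.5-fold line. Irf8 and Cd274, which encodes PD-L1, had log2 ratios of 0.11 and 0.06 with intervals that reached 0. Cxcl10 had 10 UMIs in TG and 14 in WT, and Cxcl9 had 0 in both, so these chemokines of the pathway were not detectable as a difference at this depth. The other immunity-related GTPases, Irgm2 (log2 1.39), Ifi47 (1.32), Irgm1 (0.96) and Igtp (0.85), were all past the line.

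The promoters of these genes are shown because a pair of short motifs bear on interferon responses, the gamma-activated site (GAS, searched as TTCNNNGAA, which is its own reverse complement) and the interferon-stimulated response element (ISRE, searched on both strands as GAAA, any 2 bases, then GAAA again). Sequences come from RefSeq on GRCm38.p6, which holds a promoter for 17 of the 23 list members in 20 windows, and the 250 bases before the start were searched. At least 1 motif lay in 70.0% of the windows of the list, and in 9.66% of all 32851 promoter windows. For the MHC class I list it was 4 of 20 windows, and for the type I interferon list 17 of 25. The stretches below run 5′ to 3′ on the strand of the gene, with the motif letters in capitals, and a match describes the letters only.
Gbp7, chr3:142530215-142530307, plus strand: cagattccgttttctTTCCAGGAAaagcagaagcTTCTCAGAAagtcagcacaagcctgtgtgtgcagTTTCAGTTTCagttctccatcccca
Gbp2, chr3:142620589-142620628, plus strand: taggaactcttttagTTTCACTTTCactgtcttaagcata
Irgm2, chr11:58214887-58214937, plus strand: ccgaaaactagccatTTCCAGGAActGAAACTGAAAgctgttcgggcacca
Igtp, chr11:58199496-58199546, plus strand: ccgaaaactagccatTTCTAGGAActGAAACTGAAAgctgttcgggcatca
Irgm1, chr11:48871421-48871465, minus strand: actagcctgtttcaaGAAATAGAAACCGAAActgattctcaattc
Irf1, chr11:53769909-53769947, plus strand: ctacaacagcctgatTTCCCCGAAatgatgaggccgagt
Irf8, chr8:120736172-120736228, plus strand: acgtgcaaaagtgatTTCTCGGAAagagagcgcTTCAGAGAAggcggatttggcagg
B2m, chr2:122147533-122147572, plus strand: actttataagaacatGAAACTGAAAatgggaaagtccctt
Gbp7 held 2 GAS and 1 ISRE match, the paralogs Irgm2 and Igtp held 1 of each side by side, Irgm1 held 2 overlapping ISRE matches, the window of B2m held 1 ISRE match, and Irf8 held 2 GAS matches. Among the genes shown, the log2 ratios in cluster 1 ran from 0.11 for Irf8 to 1.85 for Gbp2. Genes with and without a ratio past 1.5-fold thus held a motif. The stretches are a selection, and other tested genes with a match are not shown. Among those are Tgtp2 (log2 3.15), H2-T22 (1.22) and Gbp5 (1.12).

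The higher level was seen across many cells. With each cell thinned to 1000 UMIs, a TG cell of cluster 1 held a mean of 2.20 UMIs of the list and a WT cell 1.29. No UMI of the list was found in 16.2% of TG and 33.4% of WT cells, and 3 or more were found in 34.7% and 14.7%. Gbp7 was seen in 10.7% of the TG and 3.24% of the WT cells, and unthinned in 21.2% and 6.55%. T cells, which express these genes themselves, held Gbp7 in 24.3% and 22.8% of cells at the same depth. The list's summed level was 2164 CPM in TG and 1309 CPM in WT in cluster 1, and 2248 and 2275 CPM in T cells. For the members tested, the log2 ratio of TG to WT had a median of 0.58 in cluster 10 (17 genes), 0.03 in T cells and -0.09 in NK cells, against 1.04 in cluster 1. T cell types were summed, so the ratio within a single type can differ from the T cell median. The ratios in the other cells come from the same pair of libraries, and the differences between cell types were not tested.

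**Figure D3:**
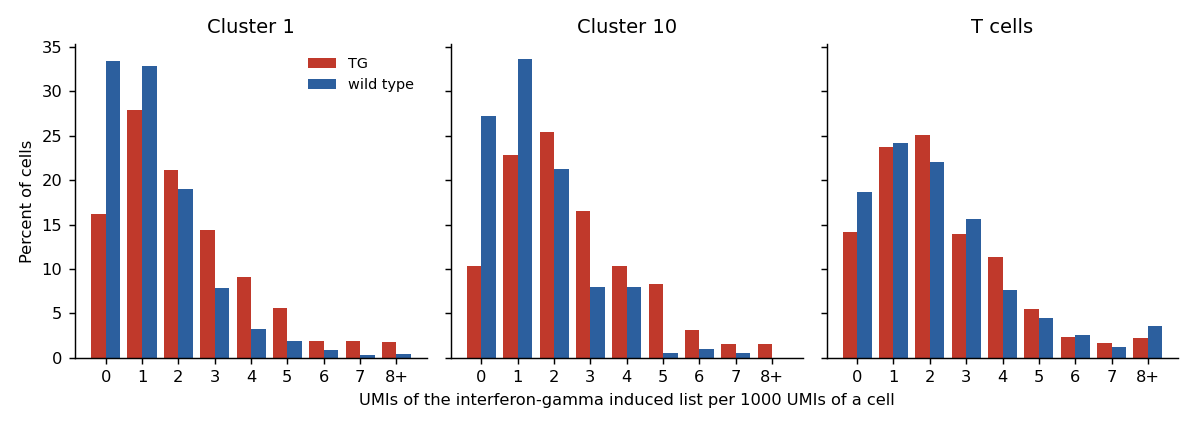
Share of cells (y axis, percent) with a given number of UMIs of the interferon-γ list (x axis) after each cell was thinned to 1000 UMIs, TG in red and WT in blue, for cluster 1, cluster 10 and T cells. In cluster 1 the WT bars are highest at 0 UMIs (33.4%) and the TG bars at 1 UMI (27.9%), and in T cells 14.1% of TG and 18.6% of WT cells had 0 UMIs.

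MHC class I and immunoproteasome genes were higher in TG cluster 1 cells as well. Of the 20 genes on the list, all tested, 12 were higher, 0 were lower, and the median log2 ratio was 0.61. Psmb9, a catalytic subunit of the immunoproteasome, had 244 CPM in TG cells and 77.3 in WT cells (log2 1.66, 1.44 to 1.88), and was seen in 21.0% and 7.07% of thinned cells (18.3% and 10.7% of T cells, and 49.3% and 14.5% of cluster 1 unthinned). Nlrc5, the transactivator of class I genes, had 315 and 124 UMIs, with a log2 interval from 0.89 to 1.51. The light chain B2m had 3386 and 2023 CPM (log2 0.74), the heavy chain H2-K1 had 2827 and 1728 CPM (log2 0.71), and the peptide transporter subunit Tap1 had 291 and 162 CPM (log2 0.85). The ratios differed among members: the heavy chain H2-D1 differed by 0.36 on the log2 scale, the proteasome activator subunit Psme2 by 0.24, and the chaperone Calr stood at 812 and 814 CPM. H2-Q6 and H2-Q7 are near copies whose reads may be shared, at log2 ratios of 0.79 and 1.04. In T cells Psmb9 had 240 CPM in TG and 120 CPM in WT, and the list's median ratio was 0.45 in cluster 10, 0.17 in T cells and 0.16 in NK cells.

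MHC class II genes, which B cells use to present antigen to helper T cells, were within 1.5-fold between the genotypes but for 1. Of 11 genes 1 was higher, and the list's median log2 ratio was 0.08, while in T cells, which make little of them, it was 1.08 (1023 and 511 CPM summed). The exception was H2-Oa, a chain of the inhibitor of peptide exchange, with 206 and 105 CPM (log2 0.98, 0.78 to 1.18), while its partner H2-Ob had 924 and 895 CPM (log2 0.05). The chains H2-Eb1 and H2-Aa differed by 0.43 and 0.33, and Cd74, the invariant chain, by -0.08. Genes of the type I interferon list were higher for 9 of 24 tested and lower for 0, with a median of 0.52. They were led by Zbp1, a sensor of nucleic acids, with 39.5 and 13.1 CPM (log2 1.60, 1.06 to 2.17), Ly6a with 687 and 319 CPM (log2 1.11, 0.99 to 1.22) and Slfn5 with 150 and 73.8 CPM (log2 1.02). The classical members Ifit1, Mx1 and Rsad2 had at most 20 UMIs in either genotype and could not be tested, and Isg15 had a log2 ratio of 0.52 with an interval from -0.18 to 1.24. Many genes on this list also respond to interferon-γ.

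Among the other genes named by rank were a pair of protease inhibitors and several genes that T cells hold at similar or higher levels. Serpina3g had 385 CPM in TG and 77.7 CPM in WT (log2 2.31, 2.10 to 2.52), and Serpina3f had 94.1 and 13.1 CPM (log2 2.85, 2.35 to 3.38). The 2 serpins are close paralogs, so their split is uncertain, and they stood at 266 and 163 CPM, and 101 and 89.7 CPM, in T cells. Slfn1 had 221 and 34 UMIs (log2 2.55) and 228 and 197 CPM in T cells, and its log2 ratio was 1.14 in the cells with fewer than 2 UMIs of other lineages and 1.41 over all cells named mature B. Ifitm3, an antiviral membrane protein, had 26.8 and 6.71 CPM (log2 2.00, or 3.69 in the cells with fewer than 2 UMIs of other lineages), and Wars, a tRNA synthetase, 44.6 and 12.7 CPM (log2 1.81). T cells held Ifitm3 at 32.3 and 13.5 CPM and Wars at 29.5 and 18.9 CPM. Gm11361 had 104 and 27.2 CPM in cluster 1 and 98.2 and 33.2 CPM in T cells, log2 ratios of 1.93 and 1.56. Wfdc17 had 26.8 and 7.77 CPM (log2 1.79, or 0.99 in the cells with fewer than 2 UMIs of other lineages). T cells held less Wfdc17, at 9.46 and 0.63 CPM. The ratios of Slfn1, Ifitm3 and Wfdc17 in those cells have no interval and may rest on few UMIs.

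Some of the named transcripts stood higher in T cells than in cluster 1, or are known from other cells. Gzma, a granzyme of killer cells, had 157 CPM in TG and 25.8 CPM in WT cluster 1 cells, and 4281 and 423 CPM in T cells. Its log2 ratio of 2.60 was 1.16 over all cells named mature B, a set that adds 40 TG and 165 WT cells, of which Scrublet marked 22 and 110 as doublets. Fcer1g, an adaptor of innate cells, had 56.8 and 13.4 CPM in cluster 1 and 446 and 143 in T cells, and its log2 ratio of 2.08 was 0.73 over all cells named mature B. The switched constants Igha, Ighg1, Ighg2b and Ighg2c were all higher in TG cluster 1 cells, with Igha at 230.0 and 64.6 CPM, but T cells, which do not make them, held Igha at 270.0 and 309 CPM and Ighg2c at 32.5 and 0 CPM in the filtered table. Ighg2c had 122 UMIs in TG and 0 in WT cluster 1 cells, and 0 UMIs allow up to 1.06 CPM. In TG thinned cells Igha was seen in 20.3% of cluster 1 and 20.2% of T cells, and in WT in 4.89% and 2.76%. Unthinned, 49.5% of TG and 8.13% of WT cells of cluster 1 held it.

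The genes lower in TG cluster 1 cells included transcripts that antigen receptor and other signals induce within minutes. Nr4a1, the nuclear receptor NUR77 that reports receptor signalling, had 292 CPM in TG and 579 CPM in WT (log2 -0.99, -1.11 to -0.87), and its relative Nr4a2 had 34 and 92 UMIs (log2 -1.58, or -3.01 in the cells with fewer than 2 UMIs of other lineages). The Nr4a2 ratio in those cells has no interval and may rest on few UMIs. Tnfaip3, the NF-κB inhibitor A20, had 89.0 and 164 CPM (log2 -0.88), and Btg2 had 508 and 778 CPM (log2 -0.62). Of the 23 immediate early and NF-κB genes 4 were lower and 1 was higher, beside 4.68% and 4.77% of all genes tested. The median was -0.21, and the summed level of the list was 22174 CPM in TG and 22077 in WT. Jun was the member that was higher, with 2064 and 1257 CPM (log2 0.71), and Fos, at 1154 and 1148 CPM, had a ratio of 0.01. At 1000 UMIs Nr4a1 was seen in 20.9% of TG and 36.7% of WT cells of cluster 1 (10.2% and 19.1% of T cells), and unthinned in 41.9% and 52.2%. In T cells Nr4a2 had 23.1 and 35.4 CPM, against 10.8 and 32.5 CPM in cluster 1, and Nr4a1 had 119 and 245 CPM, Tnfaip3 255 and 595, and the list's median was -0.59.

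Further genes named by rank were lower in TG. Rgs2, which shortens G protein signals, had 273 CPM in TG and 669 CPM in WT (log2 -1.30, -1.41 to -1.18), and Sik1, a kinase of the cAMP response, had 208 and 500.0 CPM (log2 -1.26, -1.40 to -1.13). In T cells Rgs2 had 276 and 591 CPM and Sik1 50.1 and 95.7 CPM. Irs2, an adaptor of the insulin receptor, had 98.5 and 228 CPM (log2 -1.21), and Trib2, Dusp5, Atp1b1, Cbx6, Ccdc77 and Gch1 had log2 ratios between -1.48 and -1.08. In the cells with fewer than 2 UMIs of other lineages the ratios of Atp1b1 and Cbx6 were -2.77 and -3.14, and those of Ccdc77 and Gch1, -1.11 and -1.08, were -1.82 and -1.83 in thinned cells. The ratios in those cells and in thinned cells have no interval and may rest on few UMIs. The mitochondrial transcript mt-Atp8 had 82.3 and 174 CPM in cluster 1 and 65.8 and 146 CPM in T cells. In T cells Irs2 had 13.9 and 43.9 CPM, Trib2 49.5 and 81.9 and Dusp5 152 and 389. Rgs2, Sik1, Irs2, Trib2, Dusp5 and mt-Atp8 had lower CPM in TG than in WT past 1.5-fold in both cell types. The others did not follow in T cells, where the log2 ratio was 0.20 for Cbx6 (65.9 and 57.3 CPM, against 13.4 and 31.4 in cluster 1), 0.07 for Atp1b1, -0.29 for Ccdc77 and -0.35 for Gch1. In cluster 10 Cbx6 and Atp1b1 had -1.12 (-1.87 to -0.40) and -1.16 (-2.21 to -0.17). Gch1 and Ccdc77 had -0.45 and 0.40 there, with intervals that reached 0. Rgs2, Sik1, Irs2, Trib2, Dusp5 and mt-Atp8 were also lower in TG past 1.5-fold in cluster 10.

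Genes of young B cells were lower in TG cluster 1 cells. Of the 6 tested members of the immature B list, 5 were lower and the median log2 ratio was -0.82. Cd24a, the heat-stable antigen that falls as B cells mature, had 296 CPM in TG and 542 CPM in WT (log2 -0.87, -0.99 to -0.76), and Vpreb3, a chaperone of the pre-B cell receptor, had 144 and 243 CPM (log2 -0.76, -0.94 to -0.59). Sox4 had 16.9 and 36.0 CPM, Cd93 had 19 and 34 UMIs, and Myb had 33 and 51 UMIs. Ly6d did not follow them, with 865 and 860 CPM. Lower ratios of this list were also seen in cluster 10. The list's median log2 ratio there was -0.85 over 5 members, of which 1 was higher in TG past 1.5-fold. Vpreb3 had -1.36 in cluster 10 (-2.19 to -0.59), and Sox4 had 0 UMIs in TG and 12 in WT. In T cells the list's median was -0.03. Whether these ratios differ between the cell groups was not tested. Sox4 had 3.98 and 13.2 CPM in T cells (log2 -1.73, against -1.09 in cluster 1). T cells held little Cd24a (11.6 and 14.2 CPM) and Vpreb3 (2.47 and 2.13 CPM), but their Cd93 (10.8 and 33.4 CPM) was above that of cluster 1 in both genotypes and their Myb (25.8 and 17.6 CPM) in TG. Cd24a was seen in 23.6% of TG and 37.2% of WT cells at 1000 UMIs (0.892% and 0.719% of T cells), and unthinned in 48.8% and 56.4%. In the finer subcluster 1 the ratios of Sox4, Cd93 and Myb were -0.56, 0.02 and 0.30, and in subcluster 2 they were -1.60, -2.51 and -2.24. Cd24a had -0.67 and -1.06. The Sox4 intervals overlapped (-1.26 to 0.13 and -2.40 to -0.86). Cd93 and Myb rest on few UMIs in each subcluster, so no difference between subclusters is read from these low-count members.

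B cell identity and signalling genes differed little. Over all genes tested, 4.77% were higher and 4.68% lower. None of the 10 B lineage genes passed 1.5-fold (Ms4a1, which encodes CD20, at 1094 and 1080 CPM), and the same held for 16 genes of B cell receptor signalling, 7 inhibitory coreceptors and 8 BAFF and APRIL pathway genes. The medians of these lists lay between -0.18 and 0.12. Among the BAFF genes Tnfrsf13c, the BAFF receptor, had 783 and 995 UMIs (log2 -0.49, -0.63 to -0.36), and the signalling adaptor Traf2 had a log2 ratio of 0.57. Of 10 follicular genes 2 were higher: Klf2, which keeps lymphocytes recirculating, with 1523 and 942 CPM (log2 0.69, 0.62 to 0.76), and Icosl, the ligand that supports helper T cells, with 309 and 194 CPM (log2 0.67, 0.52 to 0.83). Klf2 was also higher in TG T cells, at 478 and 300.3 CPM. The marginal zone list had 1 of 8 lower (Cd36, log2 -0.74), and the B-1 list had S100a6 higher and Bhlhe41 lower of 7. S100a6 had 124 and 54.7 CPM (log2 1.18), and in T cells 835 and 425 CPM (log2 0.97).

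The transgene acts on the receptor for TGF-β in T cells, and the pathway was described in cluster 1 for that reason. Of 16 genes tested, 1 was higher, 0 were lower, and the median was -0.19. Tgfbr2 had 211 CPM in TG and 244 CPM in WT cluster 1 cells (log2 -0.21, -0.36 to -0.05), against 331 and 161 CPM in T cells. The feedback inhibitor Smad7 had 157 and 233 CPM (log2 -0.57, -0.74 to -0.40), just inside the line, and Pmepa1, another inhibitor of the pathway, had 50 and 23 UMIs (log2 0.97).

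The remaining lists held few calls, beside 4.77% higher and 4.68% lower over all genes tested. Among 13 trafficking genes only Cxcr4, the receptor for CXCL12, passed the line, with 409 and 675 CPM (log2 -0.72, -0.82 to -0.62). Of the heat shock genes Hspa1a and Hspa1b, near-identical copies, were higher with log2 ratios of 0.66 and 1.36, and the other 7 tested stayed within 1.5-fold. The BCL-2 family had Bak1 higher and Bcl2a1b lower of 10, the latter with an interval that reached 0. Among the B cell cytokines Tnf (91 and 47 UMIs) and Ifng (35 and 21 UMIs) were past the line, but the interval of Ifng reached 0 and T cells held it at 182 and 234 CPM. Of 9 tested cell cycle genes 1 was lower, of 6 plasma cell genes 1 was higher and 1 lower, and of 5 costimulation genes Icosl alone was higher. Of 2 age-associated genes 1 was higher, with an interval that reached 0. The 1 tested germinal centre gene, Bcl6, had a log2 ratio of -0.28.

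**Figure D4:**
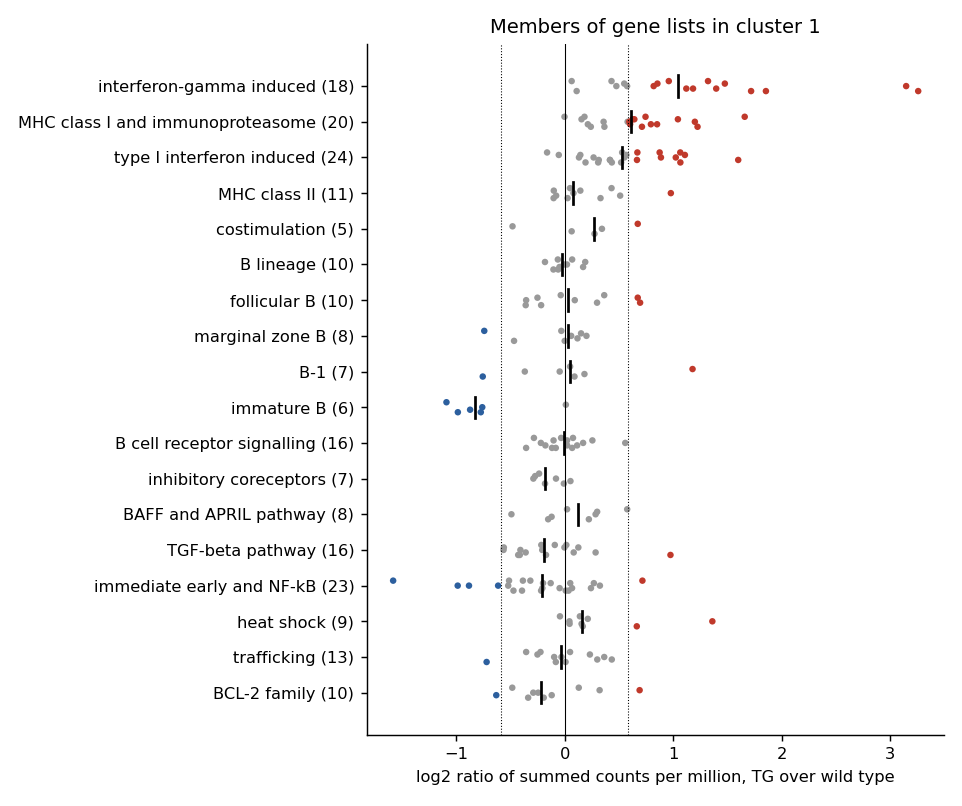
Log2 ratio of summed CPM, TG over WT, for each tested member of 18 gene lists in cluster 1 (number tested in brackets), with the list's median as a black bar and dotted lines at 1.5-fold. Red points are higher and blue points lower past that line, and the interferon-γ list (median 1.04) and the immature B list (median -0.82) lie farthest from 0 among these 18, which leave out lists such as the switched constants (median 1.30).

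The antibodies measured proteins on the same cells, as a share of all antibody counts. Of 48 antibodies with enough counts, 2 were higher in TG (4.17%) and 13 were lower (27.1%). With TMM factors in place of the totals, the log2 ratios were 0.28 higher (IgM), and 5 antibodies were higher and 5 lower. CD23 took 10.9% of the antibody counts in TG cluster 1 cells and 5.15% in WT (log2 1.08, 1.07 to 1.09), with a median of 232.5 and 85 UMIs per cell. On cluster 10 cells its share was 1.04% and 0.954%, and on T cells 0.254% and 0.255%, where both libraries were nearly level. Its transcript Fcer2a went the other way, with a log2 ratio of -0.36 (-0.45 to -0.27). Within each library, cells with an Fcer2a UMI had a higher median centred log ratio of CD23 (3.73 in TG, 2.74 in WT) than cells without one (3.38 and 2.38), and the median of TG cells without an Fcer2a UMI was above that of WT cells with one.

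The CD24 antibody, like its transcript, was lower on TG cluster 1 cells, and it was also lower on TG T cells, which hold little of the transcript. CD24 took 0.330% of the counts in TG and 1.55% in WT cluster 1 cells (log2 -2.23), while on T cells it took 0.163% and 1.30%. TER-119, an antibody to erythroid cells, took 0.0451% and 0.812% on cluster 1 cells and 0.0506% and 1.08% on T cells. Its median was 1 UMI per cell in both genotypes of cluster 1, with upper quartiles of 2 and 3, so the WT share lay in a minority of cells. The B cell receptor and lineage proteins were within 1.5-fold: IgM took 24.4% and 24.3%, IgD 28.3% and 27.1%, and CD45R 12.4% and 12.6%. CD45R had a log2 ratio of -0.02, which turned to 0.26 with TMM factors. CD5, CD1d and CD43 had log2 ratios of -0.74, -0.73 and -0.85, but of -0.46, -0.45 and -0.57 with TMM factors, inside the 1.5-fold line. CD4, which B cells do not make, had 0.80. The antibody to CD8b, a T cell chain, took 1.16% of the counts in TG and 1.56% in WT cluster 1 cells. Its median was 28 and 31 UMIs per cell there, against 4 and 3 on T cells. Antibody counts can thus include signal that is not the named protein, and its part was not tested. On the centred log ratio per cell, a natural log score that the authors deposited and that does not go below 0, so that its differences are not log folds, the medians were 3.63 in TG and 2.66 in WT for CD23 and 0.540 and 1.04 for CD24.

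**Figure D5:**
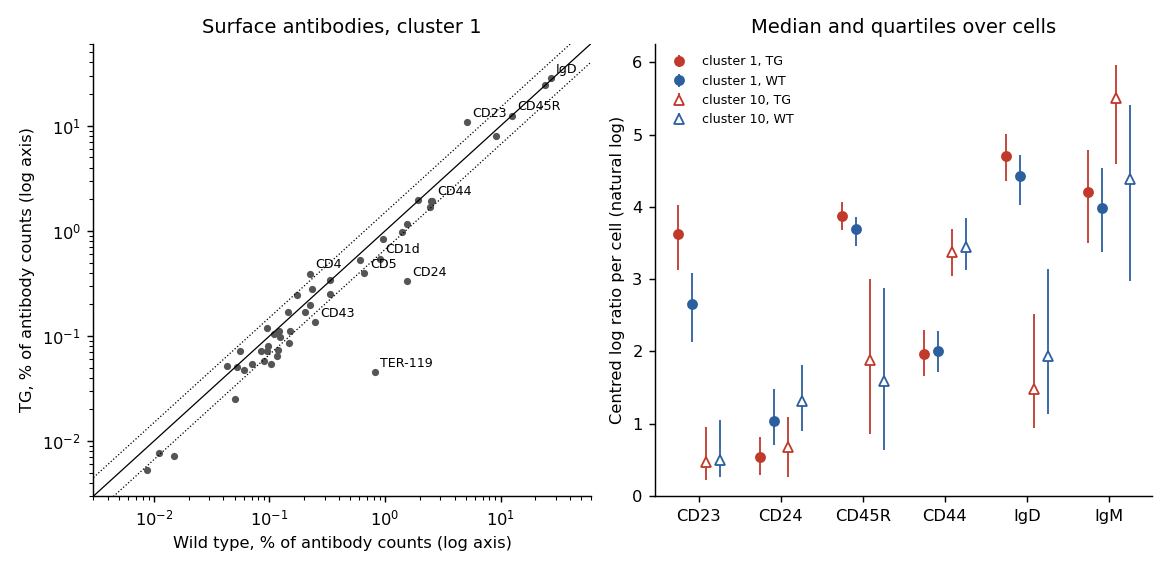
Left, share of antibody counts in cluster 1 (percent, log axes), WT on the x axis and TG on the y axis, with dotted lines at 1.5-fold. Right, median and quartiles over cells of the centred log ratio of 6 antibodies in cluster 1 (circles) and cluster 10 (triangles), where CD23 is at 3.63 in TG and 2.66 in WT cluster 1 cells.

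The comparison with the 395 cells named immature B, cluster 10, described what set cluster 1 apart within each genotype. The clusters were made from these same transcripts, so the values are a description. Of 7116 genes tested, 544 were higher in cluster 1 past 1.5-fold in both genotypes (7.64%) and 413 were lower (5.8%). With TMM factors 467 were higher and 488 lower, so the direction of the larger count depends on the scaling. The immature label of cluster 10 went against its markers: Vpreb3 was at 17.2 and 44.2 CPM in cluster 10 against 144 and 243 in cluster 1, Cd24a was level (294 and 531 against 296 and 542), Cd93 had at most 1.64 CPM, Rag1 had 1 and 0 UMIs and Igll1 had 0. Cluster 10 is therefore called by its number.

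Genes of follicular B cells were higher in cluster 1. Fcer2a had a log2 ratio of 3.45 in TG (3.08 to 3.84) and 3.02 in WT (2.72 to 3.35) over cluster 10, where it stood at 50.7 and 87.5 CPM. Cr2 followed with 3.19 and 2.60, Icosl with 2.98 in both, and Fcrl1 with 2.53 and 2.34. Of 10 follicular genes 6 were higher, among them Bach2, a repressor of plasma cell fate (2.44 and 1.91), Btla (2.01 and 1.70) and the lymph node homing receptor Ccr7 (2.01 and 1.54), whereas Cxcr5 was at -0.56 in both, just inside the line. Other genes of the ranking were Neurl3, Satb1, Rflnb, Smad7, Rasgrp3, Lrrk2 and Ciart, with the smaller of both ratios between 2.37 and 2.88. Smad7 had 3.34 and 2.49, and Id3 and Skil of the same TGF-β list had 1.67 and 1.60, and 1.28 and 1.27. Of the 16 tested members of that list 6 were higher and 2 lower. MHC class II genes were higher for 5 of 11 (Ciita, their master regulator, 1.49 and 0.99) and BAFF and APRIL genes for 4 of 8. Of 21 immediate early genes 9 were higher and 1 lower. Of 8 marginal zone genes 1, Cr2, was higher and 3 were lower.

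Genes of B-1 cells were lower in cluster 1, the list with the largest median ratios of those described. All 10 tested members were lower, with a median log2 ratio of -3.17 in TG and -3.07 in WT. Zbtb32 had 5 UMIs in each genotype of cluster 1 (1.59 and 1.77 CPM) against 268 and 191 CPM in cluster 10. S100a6 had 124 and 54.7 CPM against 2644 and 2208, Bhlhe41, a transcription factor that B-1a cells need, 12.1 and 20.5 CPM against 125 and 156, and Ahnak 197 and 203 CPM against 1533 and 1285. Prkar2b, at -5.55 and -5.28, came first in the ranking, which uses the ratio of smaller size in either genotype. Fcrl5, S100a6 (-4.42 and -5.33), Plscr1, Nid1, Lmna, Csf2rb, Diras2, S100a4, Rassf4, Cd9 and Ccnd2 followed. The proteins differed in the same sense, with IgD at 28.3% and 27.1% of antibody counts on cluster 1 against 4.36% and 5.06% on cluster 10, IgM at 24.4% and 24.3% against 58.4% and 44.9%, CD45R at 12.4% and 12.6% against 3.00% and 3.18%, and CD44 at 1.95% and 2.52% against 6.73% and 10.1%. Of 14 tested interferon-γ genes 3 were higher and 3 lower in cluster 1 (medians 0.26 and -0.31), and of 20 MHC class I genes 0 (0.04 and -0.05).

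Within cluster 1 the finer clustering of the authors made a pair of large subclusters. Subcluster 1 held 50.9% of TG and 54.4% of WT cells, subcluster 2 held 47.0% and 43.7%, and subcluster 29 held 22 and 24 cells. Few genes separated them: of 6147 tested, 31 were higher in subcluster 2 past 1.5-fold in both genotypes (0.504%) and 23 were lower (0.374%). The higher ones included Cr2 (log2 1.06 in TG and 0.89 in WT), the chemokine receptor Ccr6 (1.24 and 1.28), the coreceptor Cd72 (0.99 and 0.71), the TACI receptor gene Tnfrsf13b (0.94 and 0.80) and Ciita (0.74 and 0.65), and the lower ones Ahnak (-0.97 and -0.76), Nr4a1 (-0.60 and -0.68) and Atf3 (-1.56 and -0.69). Fcer2a had 0.24 and 0.17, and Ighd 0.11 and 0.09. The TG ratio of the interferon-γ list appeared in both, with a median over WT of 1.14 in subcluster 1 and 1.08 in subcluster 2.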

How the data were processed

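Per the submitters' processing notes and the methods, the authors aligned reads to mm10 with STAR in the BD Rhapsody pipeline, filtered the table to 13528 genes by rules not given in the sources used here, and joined and clustered the libraries in Seurat; clusters and names are as deposited. The deposited tables hold UMI counts per gene and antibody, centred log ratios of the antibodies on a natural log scale, and the mitochondrial percent per cell (cluster 1 medians 7.39% in TG and 8.01% in WT). The authors' normalised transcript table was not used. Of the genes in the filtered table, 630 are listed at 0 in every TG cell and 365 in every WT cell, and 3 of the called genes are of this kind. A RefSeq table matched 13468 symbols.

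For each genotype, counts were summed over the cells of a set and divided by the set's total. Ratios have exact conditional binomial intervals, CPM exact Poisson intervals, and no test was run across genes because each genotype is 1 library. Genes needed 50 UMIs over the profiles compared. The 30 gene lists hold 347 genes, 335 of them in the table. The members and lists were chosen with earlier results of these data known. The text names list members, antibodies, and the 12 highest and 12 lowest genes with 100 or more UMIs over both profiles and 10 in each, the same direction under totals, TMM and median-of-ratios scaling, and at most 20% of UMIs in the 3 richest cells, leaving out receptor V, D and J segments, Xist and Y-linked genes. Genes named for the subclusters are list members. Scrublet in scanpy 1.11.5 (expected rate 5%) marked 2 TG cells and 1 WT cell of cluster 1 as doublets, and these were kept. TMM factors came from edgeR 4.0.16 in R 4.3.3, used for scaling only. Other work used Python 3.11.15 and scipy 1.17.1, and the ratio script was tested on simulated data.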

Additional observations from a re-analysis of the deposited data

Results flagged for a closer look

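D10Wsu102e had a log2 ratio of TG over WT of -0.60 in cluster 1 (113 and 155 UMIs) and of 0.99 in cluster 10 (141 and 59 UMIs), past 1.5-fold in opposite directions in the 2 B cell groups. It was picked out among all genes with 100 UMIs or more in each group, and the difference was not tested. In T cells its level was 42.5 and 48.8 CPM.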

How the results depend on the processing

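The count of genes past 1.5-fold between TG and WT cells, 767, lay between 641 and 841 under 11 alternatives and was 2601 of 11652 genes with no minimum count; 698 of the 767 kept their call and direction with TMM factors. After thinning 329 of the 767 still had 50 UMIs, and 259 of them kept it, 68 were inside 1.5-fold and 2 had the other direction. Without cells holding 2 or more UMIs of other lineages 160 could be tested, and 113 kept it, 43 were inside 1.5-fold and 4 had the other direction. The share of higher genes among them was 50.5%, 59.6% with TMM factors, 40.3% over all cells named mature B and 33.6% without the cells with other lineages' transcripts. The count against cluster 10, 957, was 544 after thinning (68.4% higher, against 56.8% and 48.9% with TMM factors) and 1858 with no minimum. The difference in the share of cluster 1, 3.87 points, was -4.66 points without the cells with other lineages' transcripts, a setting that keeps 93 TG and 485 WT cells by a limit not scaled to depth. The median of the interferon-γ list, 1.04, was 1.30 after thinning, 0.92 without those cells, 0.91 over all mature B cells and 1.14 in subcluster 1. For this list and the MHC class I list the same 18 and 20 members were kept in each setting, whatever their UMIs there. After thinning and without the cells with other lineages' transcripts, the medians may thus rest on members with few UMIs. The median of the MHC class I list, 0.61, was 0.65 with TMM factors, 0.65 with median-of-ratios factors, 0.64 with totals without ribosomal protein and mitochondrial genes, 0.66 after thinning, 0.67 without cells of other lineages' transcripts, 0.50 over all mature B cells, 0.66 in subcluster 1 and 0.58 in subcluster 2. Its members past 1.5-fold were 12, and 7 over all mature B cells. The antibodies past 1.5-fold numbered 15, 10 with TMM factors and 3 on the centred log ratio, where differences are not log folds because the score stops at 0. The T cell list against cluster 10 in WT, a median of -0.89, was 0.08 after thinning. The subcluster settings were chosen after seeing the data, and the cause of these shifts was not tested. No paired analysis was possible because each genotype is 1 library, which also leaves no replicate to leave out. Counts of the library files were compared for 13 genes only, and cluster 10 was not compared without cells of other lineages' transcripts, since 2 TG cells remained. Genes under 50 UMIs, 5409 of 13528, are limited by depth and were not tested.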
